A study of Mus musculus with 8 samples.

Results

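Elastic fibres give dermis its recoil, and 10 of the genes that build them were examined here, chosen by their symbols: Eln, Fbn1, Fbn2, Fbln1, Fbln2, Fbln5, Efemp2, Emilin1, Mfap2 and Mfap5. All 10 were among the 15111 genes measured by bulk RNA sequencing of cultured mouse dermal fibroblasts, and none was lost to a filter on low values. An elastic fibre consists of a core of crosslinked elastin within a mantle of fibrillin microfibrils. Soluble tropoelastin is brought to the microfibrils by fibulins and fibulin-related proteins, and lysyl oxidases then crosslink it into an insoluble polymer. Microfibrils also hold latent TGFβ through some of the latent TGFβ binding proteins, so the matrix that fibroblasts assemble stores the growth factor targeted here.

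The TGFβ1FKO group carried 2 floxed Tgfb1 alleles and a tamoxifen-activated Cre recombinase driven by Col1a2 sequences that are active in fibroblasts (Tgfb1fl/fl:Col1a2-CreERT, 4 libraries). The control group carried the same floxed alleles without Cre (Tgfb1fl/fl, 4 libraries). Mice of both groups were fed tamoxifen from week 4 of life and killed at the end of 10 weeks. Cells from back skin were cultured first in medium with fetal calf serum. They were then kept for 72 h in serum-free medium on fibronectin. A difference between the groups therefore combines the loss of Tgfb1 with the presence of Cre, which cannot be told apart here. The labels do not say whether each library came from a separate mouse, so the p-values measure only the spread between these samples, which may be technical. Each library held 16988998 to 23071528 reads on the listed genes. Tgfb1, the targeted gene, averaged 1374 ± 85.4 normalised counts in control fibroblasts and 277.3 ± 42.5 in TGFβ1FKO fibroblasts (SD, n = 4 each), so that 20.2% of the control level was left (limma adjusted p = 1.53e-07). Fibroblast markers (Col1a1, Col1a2, Col3a1, Pdgfra, Thy1, Dcn and Lum) were all measured, with a summed normalised count of 1268030 to 1565710 in control and 1317650 to 1471270 in TGFβ1FKO libraries, whereas the keratinocyte markers Krt5, Krt14 and Krt1 were not among the genes listed and the other 3 (Krt10, Trp63 and Cdh1) summed to 91.2 to 119.5 and 91.3 to 124.3.

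None of the 10 genes changed by the test used, which required an adjusted p under 0.05 in limma, Benjamini-Hochberg adjusted over all genes, and an absolute log2 fold change over 0.6, or 1.52-fold. This compared 0 of 10 genes with 0.086% of all 15111 genes, 13 in number, that passed, 0.0794% of all genes being lower and 0.00662% higher. A log2 fold change beyond 0.6 in either direction was seen in 0 of the 10 genes and in 4.55% of all genes. At an unadjusted limma p under 0.05 the count was again 0 of 10, against 7.46% of all genes. For 0 of the 10 genes did the control and TGFβ1FKO libraries form groups without overlap, against 3.79% of all genes. 6 genes had lower and 4 had higher mean log2 values in TGFβ1FKO fibroblasts, and 49.1% of all genes were lower. The median log2 fold change was -0.06 over the 10 genes and 0.003 over all genes.

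The 95% intervals limited how large a change could have been missed. For 9 of the 10 genes the interval of the log2 fold change lay wholly within 0.6 of 0, which held for 72.2% of all genes. Eln was the exception. The values below are normalised counts, that is reads scaled by the authors to make libraries comparable in depth. In bulk samples, fewer cells of a type and less RNA per cell cannot be told apart.

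**Figure D1:**
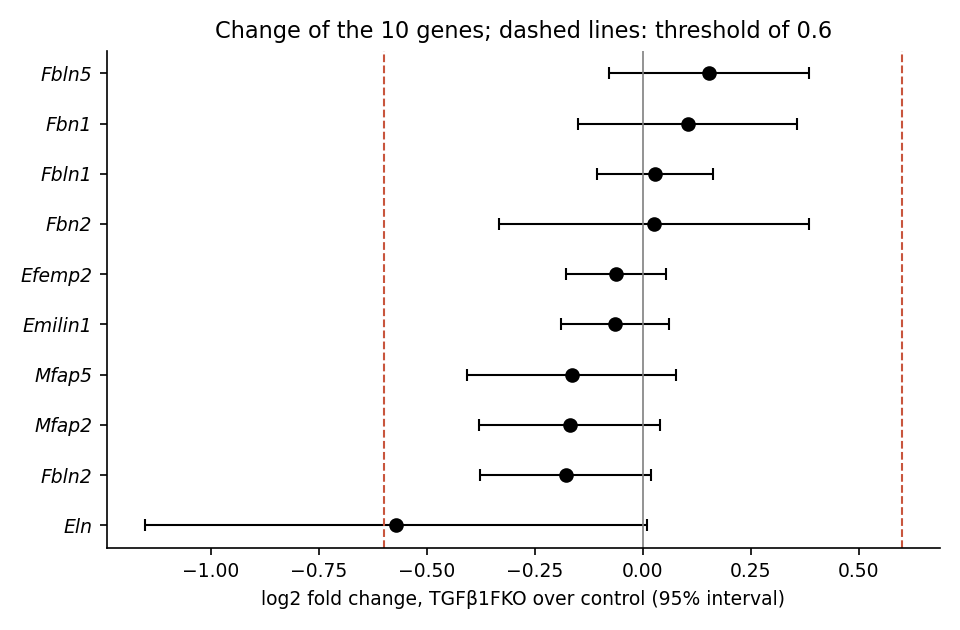
Log2 fold change of TGFβ1FKO over control fibroblasts for each of the 10 genes, with its 95% interval from limma (4 libraries per group); the grey line marks 0 and the dashed lines mark 0.6 in either direction. The interval of Eln runs from -1.15 to 0.01, and those of the other genes stay between the dashed lines.

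Levels per kilobase of exon set the order of the genes, since counts of genes of unequal length cannot be compared directly. The length used was that of all annotated exons of a gene merged, which can exceed the length of the transcripts expressed. Eln was thus divided by 8098 bases and Fbn2 by 13215, so the order, ranks and fold steps depend in part on the annotation. Fbln2, which encodes fibulin-2, a calcium-binding glycoprotein found on microfibrils and at basement membranes, was highest with 20853 ± 1476 normalised counts per kilobase (SD, n = 4) in control fibroblasts and ranked 17 among 15098 genes with a known exon length by the mean over all 8 libraries. Fbn1, the gene of the main adult fibrillin, followed with 4288 ± 886.7 per kilobase and rank 166. Efemp2 (fibulin-4), which is needed for lysyl oxidase to reach tropoelastin, had 1930 ± 88.1 per kilobase, and Fbln5 (fibulin-5), which links tropoelastin to microfibrils and to integrins, had 1375 ± 173.5 per kilobase.

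A group of 4 genes lay close together below these. Emilin1, a glycoprotein at the interface of elastin and microfibrils, had 985.7 ± 71.6 normalised counts per kilobase (SD, n = 4) in control fibroblasts, and Mfap2, a small microfibril glycoprotein, had 976.2 ± 149.1 per kilobase. Mfap5, its close relative, had 780.3 ± 94.1 per kilobase, and Fbln1 (fibulin-1) had 672.9 ± 60.7 per kilobase. Each pair of neighbours in this run had control ranges that overlapped, and Emilin1 was above Mfap2 in 5 of 8 libraries and Mfap5 above Fbln1 in 6 of 8, although Mfap2 was above Mfap5 in 8 of 8.

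The lowest levels were those of Fbn2 and Eln. Fbn2, the fibrillin that predominates in development, had 42.3 ± 13.0 normalised counts per kilobase (SD, n = 4) in control fibroblasts, and Eln, which encodes the elastin core itself, had 32.9 ± 16.3 per kilobase and rank 10532 of 15098. By the ratio of control means, Fbln1 was 15.9-fold above Fbn2, the widest step in the order, and Fbln2 was 634.8-fold above Eln. The control ranges of Fbn2 and Eln overlapped, and Fbn2 was the higher of the pair in 7 of 8 libraries. In TGFβ1FKO fibroblasts the ends of the order were the same, with 18438 per kilobase for Fbln2 and 20.4 per kilobase for Eln.

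**Figure D2:**
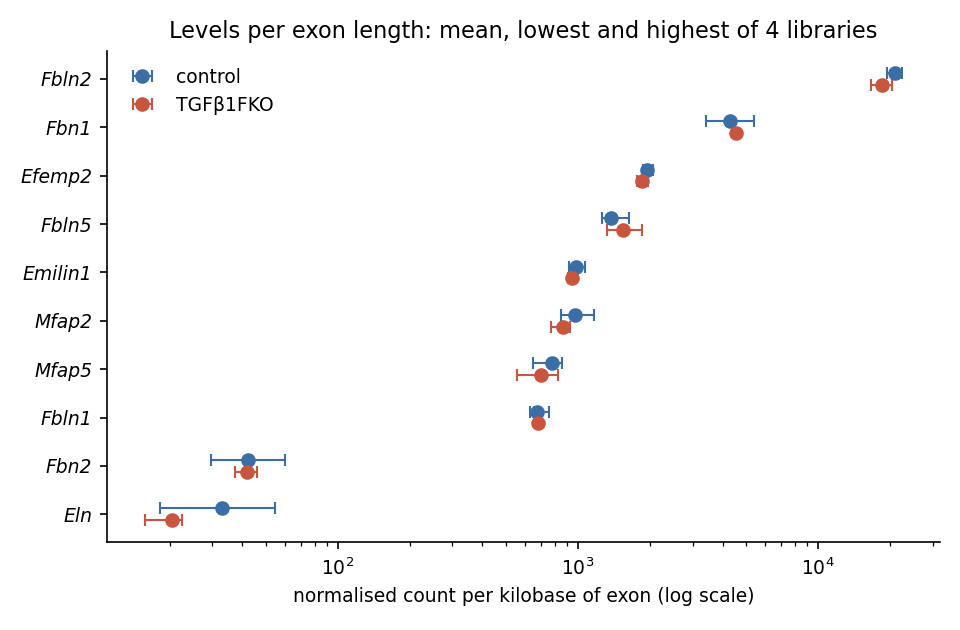
Normalised counts per kilobase of exon (log axis) of the 10 genes in control (blue) and TGFβ1FKO (red) fibroblasts; points are means and bars run from the lowest to the highest of 4 libraries. Fbln2 lies at 20853 in control fibroblasts, the lowest of the upper 8 genes, Fbln1, at 672.9, and Fbn2 and Eln apart from them at 42.3 and 32.9.

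Promoter sequences of the 2 genes with the highest level per length are shown because they head this order. Both are RefSeq windows on the build GRCm38.p6 that run from 250 bases before to 50 bases after an annotated transcript start, read 5′ to 3′ on the gene's own strand, with the letters GGGCGG or their reverse complement CCGCCC in capitals, the core of the GC box bound by Sp1. The Fbln2 window lies at chr6:91212514-91212813 on the plus strand and the Fbn1 window at chr2:125506389-125506688 on the minus strand. Both lie inside the spans of these genes, chr6:91212455-91272540 and chr2:125300594-125507993. Each start used is therefore downstream of the outermost annotated start of its gene.
Fbln2: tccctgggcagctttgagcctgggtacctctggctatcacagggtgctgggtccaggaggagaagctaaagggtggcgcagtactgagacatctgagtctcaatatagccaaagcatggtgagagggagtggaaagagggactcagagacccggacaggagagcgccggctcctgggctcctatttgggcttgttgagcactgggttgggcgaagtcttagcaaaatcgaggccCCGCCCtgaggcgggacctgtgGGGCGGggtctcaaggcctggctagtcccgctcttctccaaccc
Fbn1: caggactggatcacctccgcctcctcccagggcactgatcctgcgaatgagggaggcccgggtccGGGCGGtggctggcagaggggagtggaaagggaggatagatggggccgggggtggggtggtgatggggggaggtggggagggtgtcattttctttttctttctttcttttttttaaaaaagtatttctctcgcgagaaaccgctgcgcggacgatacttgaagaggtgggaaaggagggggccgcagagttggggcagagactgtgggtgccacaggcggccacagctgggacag
Windows were at hand for 7 of the 10 genes, 12 windows of 300 bases in all, and some of those of Fbln1, Efemp2 and Mfap2 overlap and so share bases. GGGCGG, searched on both strands, was present in 8 of the 12 windows and in 35.7% of 32851 windows of all genes. The TATA box letters TATAAA, likewise searched on both strands, were in 0 of the 12 windows and in 13.6% of all windows. CAGACA, which contains the AGAC core bound by Smad proteins, was in 5 of the 12 windows, belonging to 4 genes, and in 21.0% of all windows. None of the 3 motifs contains another. A match describes letters in the window and is not evidence of binding.

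Eln lies at chr5:134702593-134747323 on the minus strand of GRCm38 and is the only one of the 10 genes whose protein forms the elastic core. Its normalised counts were 147.1, 283.7, 444.6 and 188.6 in control libraries 1 to 4. The TGFβ1FKO libraries 1 to 4 had 182.5, 180.2, 127.0 and 170.6. Control library 3 stood highest and control library 2 next, while control library 1 fell inside the TGFβ1FKO range, so the groups overlapped even though each TGFβ1FKO library was below the control median. The means were 266.0 ± 132.1 and 165.1 ± 25.9 (SD, n = 4 each), a log2 fold change of -0.57 (SE 0.27, limma adjusted p = 0.671). The 95% interval of the percent change ran from -55.0% to 0.687%, so it covered both a change past the threshold and no change. With control library 3 left out the log2 fold change was -0.28. An exact two-sided permutation test over the 8 libraries gave p = 0.20 for Eln, where 0.0286 is the smallest value that 4 against 4 libraries allow.

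Markers of other cell types are given here because their levels differed between the same libraries. Control library 3, the highest in Eln, also had the highest summed normalised count of 5 Schwann cell markers, 685.3, and control library 2, the next in Eln, had the highest sum of 8 endothelial markers, 829.8. Control library 1, the lowest control in Eln, had sums of 412.1 and 681.3, both above those of control library 4, 209.4 and 538.3. The Schwann cell sum (Sox10, S100b, Erbb3, Foxd3 and Cdh19) ranged from 59.0 to 98.3 in TGFβ1FKO libraries, all below the control libraries. Its 5 genes were all lower with an unadjusted limma p under 0.05, against 7.46% of all genes at such a p. By the test used 2 of the 5 fell. The endothelial sum ranged from 521.0 to 560.3 in TGFβ1FKO libraries, overlapping the control range. Of its 8 markers 8 were lower, where 49.1% of all genes were lower. At an unadjusted limma p under 0.05 there were 2 of the 8, and 0 were called. Sums for 9 smooth muscle and pericyte markers ranged from 21684 to 24374 in control and from 21793 to 24149 in TGFβ1FKO libraries. Of these 9 genes 5 were lower, 3 had an unadjusted limma p under 0.05, against 7.46% of all genes, and 0 were called. Such a sum follows its most abundant genes. The 3 macrophage markers measured, Cd68, Csf1r and Lyz2, summed to 456.9 to 550.1 and 296.4 to 513.7, with Ptprc, Adgre1 and Itgam not among the genes listed. The part of these cells in the Eln values was not tested.

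The fibrillins form the microfibril backbone. Fbn1, at chr2:125300594-125507993 on the minus strand, had normalised counts of 41437, 65623, 45721 and 55220 in control libraries 1 to 4. TGFβ1FKO libraries 1 to 4 had Fbn1 counts of 54578, 54809, 55851 and 54791. The 4 TGFβ1FKO libraries sat within a narrow band inside the wide control range. The means of Fbn1 were 52000 ± 10754 and 55007 ± 572.1 (SD, n = 4 each), a log2 fold change of 0.10 with an interval from -0.15 to 0.36 (limma adjusted p = 0.872).

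Fbn2, at chr18:58008623-58210487 on the minus strand, lay at similar levels in both groups. Its normalised counts were 508.4, 797.9, 538.9 and 392.1 in control libraries 1 to 4. In TGFβ1FKO libraries 1 to 4 they were 601.1, 491.9, 606.2 and 514.1. Control library 2 was highest and control library 4 lowest, with the 4 TGFβ1FKO libraries between them. The log2 fold change of Fbn2 was 0.03 with an interval from -0.33 to 0.39 (limma adjusted p = 0.984), and its sign turned when control library 1 or 4 or TGFβ1FKO library 1 or 3 was left out, over a range of -0.13 to 0.21.

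**Figure D3:**
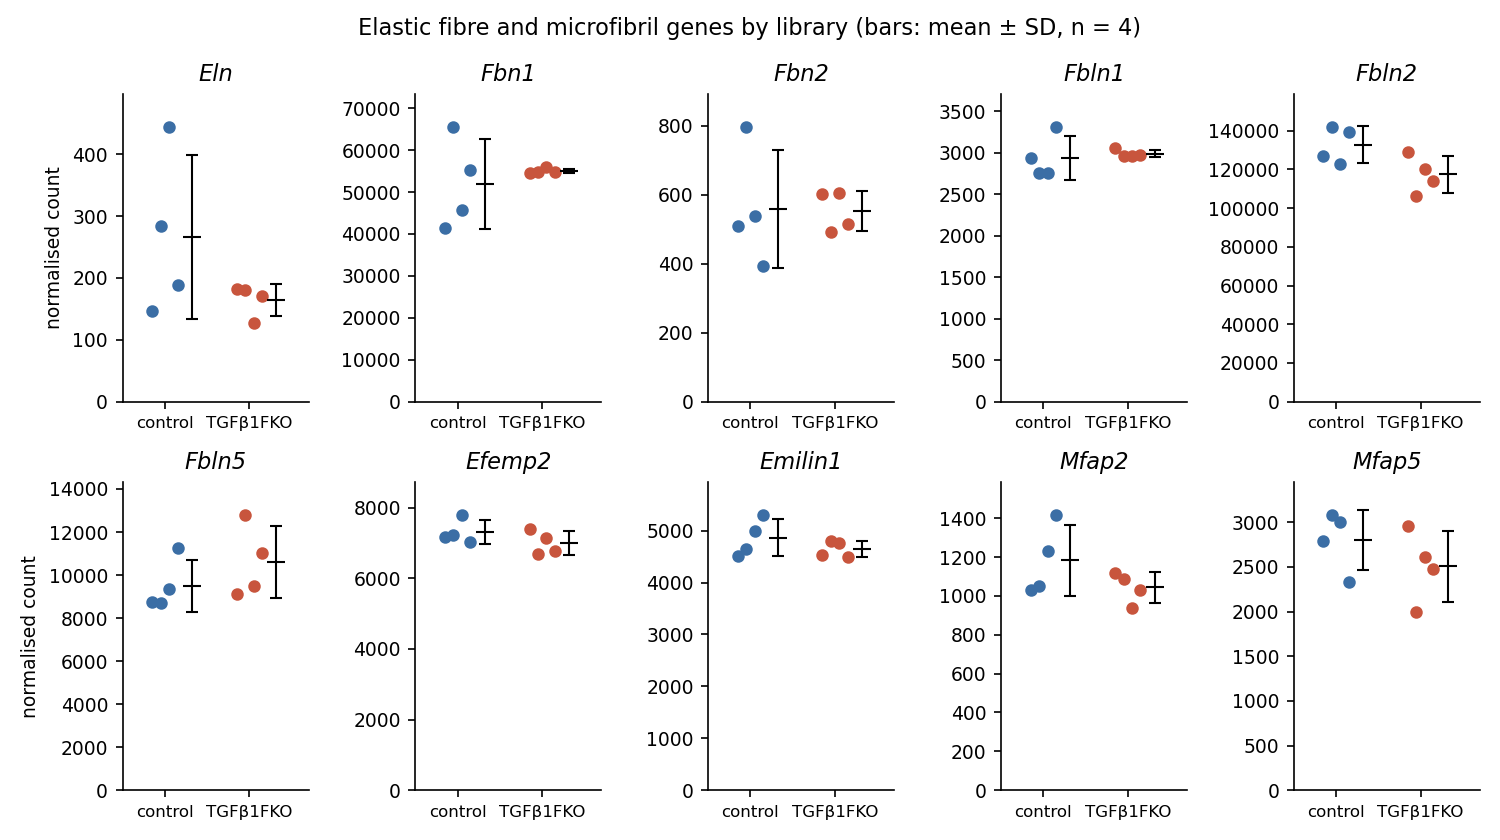
Normalised counts (linear axes from 0) of the 10 genes in each of 4 control (blue) and 4 TGFβ1FKO (red) libraries, in replicate order, with the mean and SD drawn beside each group. Control library 3 stands out for Eln at 444.6, and the 4 TGFβ1FKO libraries of Fbn1 lie between 54578 and 55851 while its control libraries run from 41437 to 65623.

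Fibulin-1 and fibulin-2 are secreted glycoproteins that bind other matrix proteins, fibronectin among them. Fbln2, at chr6:91212455-91272540 on the plus strand, had normalised counts of 126791, 142201, 122940 and 139402 in control libraries 1 to 4. In TGFβ1FKO libraries 1 to 4 they were 129155, 106243, 120412 and 113993. All TGFβ1FKO libraries but the first were below the lowest control library, and TGFβ1FKO library 1 lay inside the control range. The means were 132833 ± 9404 and 117450 ± 9718 (SD, n = 4 each), a log2 fold change of -0.18 with an interval from -0.38 to 0.02 (limma adjusted p = 0.688). Fbln2 had the lowest exact permutation p of the 10 genes, 0.0857, which did not pass the threshold. In percent, the change of Fbln2 was -11.6% with an interval from -23.0% to 1.39%.

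Fbln1, at chr15:85205949-85286535 on the plus strand, had normalised counts of 2933, 2756, 2752 and 3316 in control libraries 1 to 4. TGFβ1FKO libraries 1 to 4 had Fbln1 counts of 3057, 2964, 2966 and 2971. TGFβ1FKO library 1 was the highest of its group and the other 3 were nearly equal, all inside the control range. The log2 fold change of Fbln1 was 0.03 with an interval from -0.10 to 0.16 (limma adjusted p = 0.941).

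Fbln5 and Efemp2 act in the step that brings tropoelastin and lysyl oxidase to the microfibril. Fbln5, at chr12:101746565-101819055 on the minus strand, had normalised counts of 8726, 8692, 9351 and 11244 in control libraries 1 to 4. In TGFβ1FKO libraries 1 to 4 they were 9134, 12790, 9482 and 11005. TGFβ1FKO library 2 was the highest of all and the only library of the 10 genes' TGFβ1FKO measurements to exceed the top control library. The log2 fold change of Fbln5 was 0.15, the highest of the 10 genes, with an interval from -0.08 to 0.38 (limma adjusted p = 0.773). Efemp2, at chr19:5473954-5482517 on the plus strand, ranged from 7035 to 7794 in control and from 6681 to 7399 in TGFβ1FKO libraries. Its log2 fold change of -0.06 had an interval from -0.18 to 0.05 (limma adjusted p = 0.819), the narrowest of the 10.

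The microfibril-associated and interface glycoproteins were each a little lower in the mean. Emilin1, at chr5:30913402-30921277 on the plus strand, ranged from 4522 to 5303 in control and from 4500 to 4795 in TGFβ1FKO libraries, a log2 fold change of -0.06 with an interval from -0.19 to 0.06 (limma adjusted p = 0.827). Mfap2, at chr4:141010418-141015984 on the plus strand, had counts of 1030, 1051, 1232 and 1416 in control and 1120, 1089, 938.3 and 1030 in TGFβ1FKO libraries. Mfap5, at chr6:122505845-122529290 on the plus strand, had counts of 2789, 3082, 3002 and 2329 in control and 2958, 1993, 2607 and 2476 in TGFβ1FKO libraries. Control libraries 3 and 4 were the highest for Mfap2, whereas control library 4 was the lowest of its group for Mfap5, and in both genes the groups overlapped. The log2 fold changes were -0.17 (interval -0.38 to 0.04) for Mfap2 and -0.16 (interval -0.41 to 0.08) for Mfap5, with adjusted p-values of 0.718 and 0.762 in limma.

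The highest library was a control for all of the 10 genes but Fbln5, without any single library leading. Control library 2 led for Fbn1, Fbn2, Fbln2 and Mfap5, control library 4 for Fbln1, Emilin1 and Mfap2, and control library 3 for Eln and Efemp2. A control library was also the lowest for Fbn1, Fbln5, Fbln1 and Fbn2. All 4 TGFβ1FKO libraries lay below the control median for Eln, Fbln2, Emilin1 and Mfap2 and above it for Fbn1, Fbln1 and Fbln5. Shares over all genes were not taken for these counts, so they are not shown to be particular to these genes. The 10 genes took 1.05%, 1.23%, 1.06% and 1.16% of all normalised counts in control libraries 1 to 4 and 1.10%, 0.984%, 1.07% and 1.03% in TGFβ1FKO libraries 1 to 4. These shares overlapped between the groups, and they follow mainly Fbln2 and Fbn1, whose reads dominate the sum.

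The spread between libraries also differed between the groups for some of these genes, which is given as a description without a test. The SD of log2 values of Fbn1 was 0.294 in control and 0.0149 in TGFβ1FKO libraries, a ratio of 19.7. Of 9046 genes whose normalised counts averaged at least 200, 4 reached or exceeded it, the gene itself counted here and below. For Fbln1 the SD was 0.126 and 0.0216, a ratio of 5.85 reached by 1.38% of those genes. The coefficient of variation of Fbln1 in TGFβ1FKO libraries, 1.51%, was below the 1.83% that counting reads alone gives at its level. Eln had SDs of 0.697 and 0.244, a ratio of 2.86 reached by 9.42% of genes, and its 49.7% coefficient of variation in control libraries was far above its counting error of 6.88%. The SD was larger in control libraries for 6 of the 10 genes, for 60.1% of the 9046 genes and for 56.9% of all genes, so the wider control spread was not shown to be particular to elastic fibre genes. With 4 libraries an SD is itself imprecise.

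**Figure D4:**
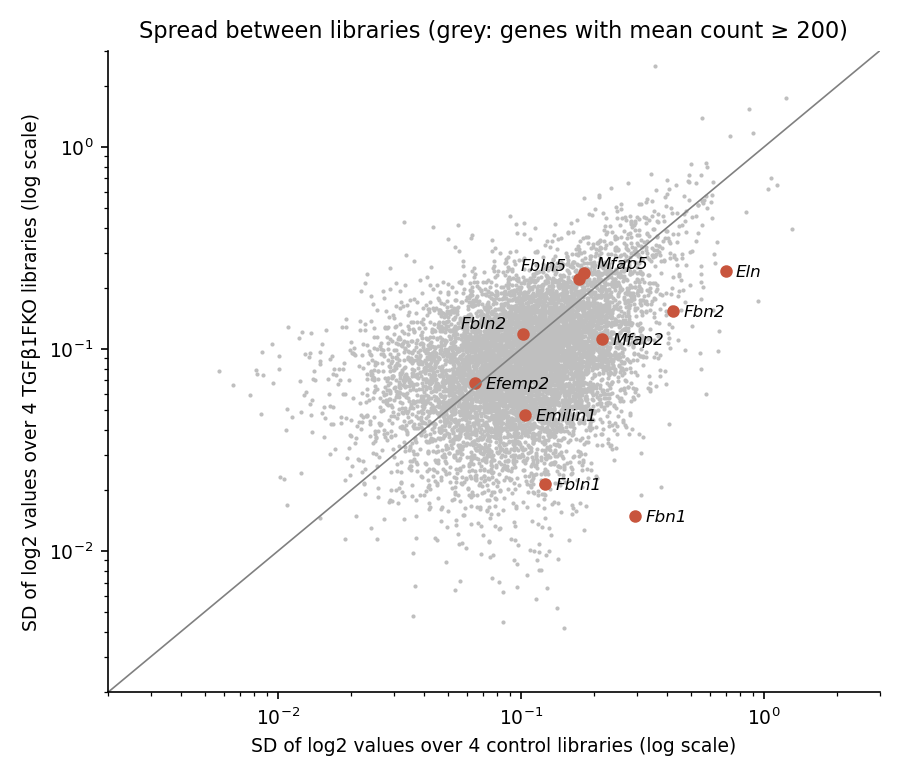
SD of log2 values over 4 TGFβ1FKO libraries against that over 4 control libraries (log axes) for the 10 genes (red, named) and for 9046 genes averaging at least 200 normalised counts (grey); the line marks equal SDs. Fbn1 lies farthest below the line of the 10 genes, with 0.294 in control and 0.0149 in TGFβ1FKO libraries.

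Ratios between pairs of the 10 genes were taken within each library, since they do not depend on how libraries were scaled. They use counts not divided by length, so only their differences between groups carry meaning. Eln over Fbn1, the elastin core relative to the microfibril backbone, was 0.00355, 0.00432, 0.00973 and 0.00342 in control libraries 1 to 4. The same ratio in TGFβ1FKO libraries 1 to 4 was 0.00334, 0.00329, 0.00227 and 0.00311. The 4 TGFβ1FKO libraries were all below the lowest control library, by a narrow margin at the boundary (0.00334 against 0.00342). The difference on the log2 scale was -0.68, with an exact two-sided permutation p = 0.0286, the smallest that 4 against 4 libraries can give. After Benjamini-Hochberg adjustment over the 5 ratios examined, this exact p was 0.143 and did not pass. With 4 against 4 libraries and 5 ratios, 1 ratio alone could not have passed at any difference, so the adjusted value does not decide the question. Without control library 3 the difference was -0.33 and the exact permutation p was 0.0857, and leaving out any 1 TGFβ1FKO library gave an exact p of 0.114 to 0.171. Without control library 1, 2 or 4 the exact permutation p stayed at 0.0286 and the differences were -0.82, -0.72 and -0.84.

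Fbln2 over Fbln1 was 43.2, 51.6, 44.7 and 42.0 in control and 42.2, 35.8, 40.6 and 38.4 in TGFβ1FKO libraries. TGFβ1FKO library 1 just exceeded the lowest control library and the other 3 were below it. The log2 difference was -0.21 (exact permutation p = 0.0571, adjusted 0.143). Fbln5 over Efemp2 differed by 0.21 on the log2 scale (exact permutation p = 0.171, adjusted 0.286), Fbn2 over Fbn1 by -0.08 (0.771, adjusted 0.964) and Mfap5 over Mfap2 by 0.005 (0.971, adjusted 0.971). None of the 5 ratios passed the threshold after adjustment, which 1 ratio alone could not have done with this number of libraries.

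Other genes of elastic fibre assembly and turnover were taken from 6 lists of 59 genes, 53 of them measured. By the test used 0 of 53 changed, against 0.086% of all genes, and 8 had an unadjusted limma p under 0.05, of which 7 were lower and 1 was higher, against 3.87% and 3.59% of all genes. Groups did not overlap for 3 of the 53, against 3.79% of all genes, and 35 were lower and 18 higher, where 49.1% of all genes were lower. The median log2 fold change of the 53 was -0.09.

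Among 5 crosslinking enzymes, Lox, the lysyl oxidase that initiates crosslinking of elastin and collagen, had mean normalised counts of 54204 ± 5932 in control and 55337 ± 2482 in TGFβ1FKO libraries (SD, n = 4 each), a log2 fold change of 0.03. Loxl4 had 651.4 ± 44.3 and 835.7 ± 110.2, a log2 fold change of 0.35 (limma adjusted p = 0.415), and was the gene of the partner lists that was higher at an unadjusted p under 0.05. Of the 5 enzymes 2 were lower and 3 higher, with a median log2 fold change of 0.03. Of 4 genes of the latent TGFβ binding protein family, 2 were lower and 2 higher (median log2 fold change 0.01). Ltbp2 had the highest count of them, with 5043 in control and 5714 in TGFβ1FKO libraries (log2 fold change 0.19, limma adjusted p = 0.671). Ltbp4, which also assists elastin deposition, had 222.7 ± 50.1 and 173.7 ± 23.4, a log2 fold change of -0.34 (limma adjusted p = 0.665).

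Of 15 microfibril-associated and fibulin-related genes 11 were lower, with a median log2 fold change of -0.09. Fn1, whose protein fibronectin is a scaffold for fibrillin assembly, had 186309 and 180712 (log2 fold change -0.03), and its RNA is distinct from the fibronectin on which the cells were grown. Mmrn1, a multimerin expressed by platelets and endothelium, was near the limit of detection with 16.5 ± 12.4 and 5.04 ± 5.72 (log2 fold change -1.94, limma adjusted p = 0.632), and 1 TGFβ1FKO library held no reads.

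The ADAMTS and ADAMTS-like proteins bind or cleave fibrillin microfibrils, and 7 of 10 were lower, with a median log2 fold change of -0.18. Adamts6 had normalised counts of 566.1 ± 17.8 in control and 452.3 ± 27.4 in TGFβ1FKO libraries (SD, n = 4 each), and its groups did not overlap. On the log2 scale Adamts6 differed by -0.32 (SE 0.07, limma adjusted p = 0.155). This was the lowest adjusted p of the 53 genes and it did not pass the threshold. Adamtsl3 had 223.1 ± 105.7 and 100.7 ± 39.3 (log2 fold change -1.08, limma adjusted p = 0.536), and Adamts17 had 8.20 ± 3.24 and 2.38 ± 1.81 (log2 fold change -1.62, limma adjusted p = 0.570), with 1 TGFβ1FKO library at 0. Adamtsl5, the most abundant of these by count, had 3170 and 2990 (log2 fold change -0.08).

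Of 9 elastin-degrading and related proteases 8 were lower, with a median log2 fold change of -0.11. Mmp2, gelatinase A, had 30609 ± 3580 and 26797 ± 1611 (log2 fold change -0.19, limma adjusted p = 0.657), and Mmp14, the membrane protease that activates it, had 37186 and 36585 (-0.02). Mmp12, the macrophage elastase, was low, with 27.0 and 20.0. Of 10 receptor genes 5 were lower and 5 higher, with a median log2 fold change of -0.004. Itgb1, the integrin β1 subunit, had 22830 and 24162 (log2 fold change 0.08), while Itgb8, a subunit of an integrin that activates latent TGFβ, had 49.9 ± 22.0 and 16.6 ± 3.74 without overlap of the groups (log2 fold change -1.45, limma adjusted p = 0.169).

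**Figure D5:**
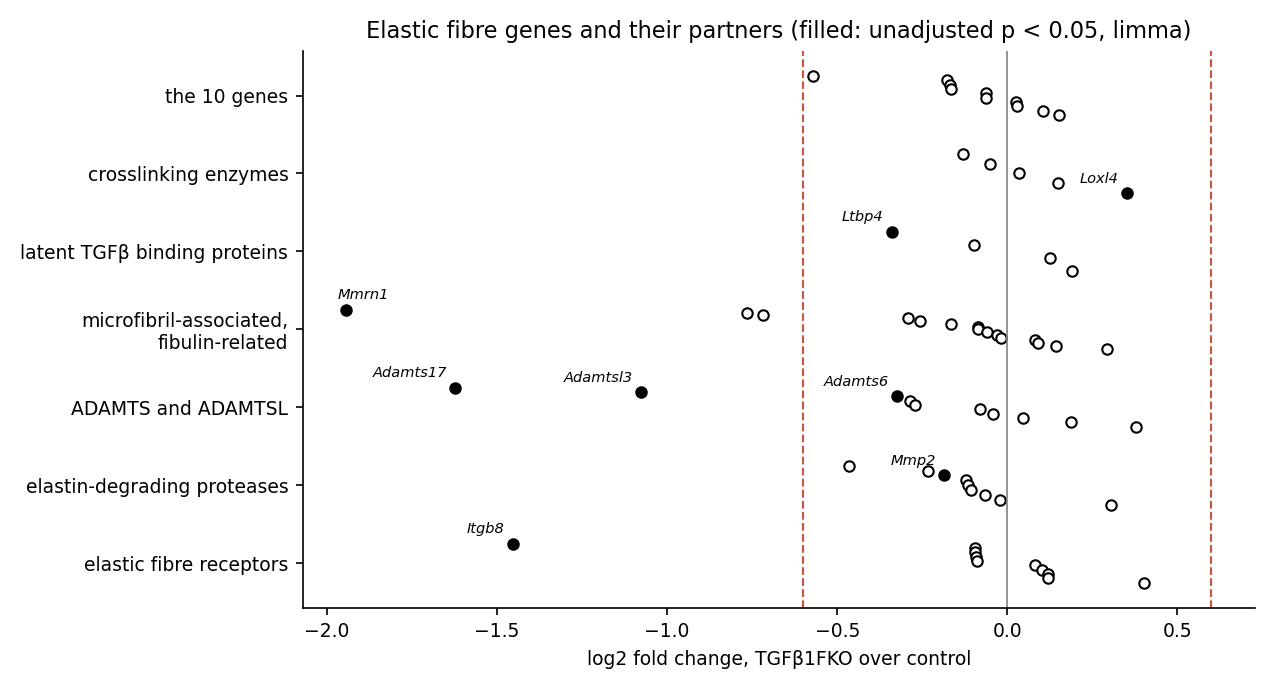
Log2 fold change of TGFβ1FKO over control fibroblasts for the 10 elastic fibre genes and for 53 partner genes in 6 lists; each point is a gene, filled and named where the unadjusted limma p was under 0.05, and dashed lines mark 0.6 in either direction. The 8 filled points are all partner genes, 7 lower and 1 higher, and none of the genes drawn passed after adjustment.

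Overlapping genes limit some of these counts, because the libraries kept no strand. Exons of Fbn1 share 2442 bases with Gm9913 on the opposite strand, which had 73.8 ± 9.98 and 66.1 ± 7.93 normalised counts (SD, n = 4 each), far below Fbn1. Fbn2 shares 129 exon bases with the non-coding Gm26507, which had 7.58 ± 1.68 and 3.50 ± 1.10 without overlap of the groups (limma adjusted p = 0.653). Efemp2 shares 173 bases with Mus81, with mean counts of 353.0 and 358.1, and Eln shares 267 bases with the antisense gene Gm30003, for which no count was listed. Reads in the shared bases cannot be assigned to either gene with certainty.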

How the data were processed

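The authors sequenced poly-A RNA of primary dermal fibroblasts (paired-end, non-directional libraries) and aligned reads to GRCm38. Per the submitters' processing notes, HISAT2 2.0.5, featureCounts 1.5.0-p3, R 4.3.2 and DESeq2 1.42.0 were used. The annotation release is not given in the sources used here. The deposited values, recorded as a signal, are normalised counts made by the authors with size factors, with 0.5 added. Genes with few reads were removed by the authors. Their own comparison columns (fold changes, standard errors, statistics and p-values) were not used.

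From these values 0.5 was subtracted and log2(value + 1) was fitted in limma 3.58.1 (R 4.3.3) over all 15111 genes and 8 libraries, with a mean-variance trend and no covariate. Fold changes are on that scale, which understates changes of low genes. A gene was called where its Benjamini-Hochberg adjusted p was under 0.05 and its log2 fold change exceeded 0.6 in size. All values below 1000 reads were whole within 0.01 after scaling back, which gave the library depths. Intervals cover 95%, and counting errors cover counting only. No pair of libraries within a group agreed within counting noise. Exon lengths and positions came from GENCODE on the same build. Within-library ratios were tested with exact two-sided permutation tests.

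The 10 genes were named in full, with Tgfb1, genes overlapping them, and in each partner list every gene with an unadjusted p under 0.05, the one with the highest count and the one with the largest change. The members and lists were chosen with earlier results of these data known. Alternatives were 2 pseudocounts, TMM scaling, a filter of 10 reads, no fold threshold, a replicate block and leaving out each library. Reads could be recovered only after subtracting the added 0.5, so the values were handled as the deposited normalised signal and the planned edgeR and DESeq2 count tests were not run. The fit was tested on simulated data whose changes were larger than the fold threshold, so this test does not cover changes near it. Some marker genes are not reported here.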

Additional observations from a re-analysis of the deposited data

Results flagged for a closer look

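Samples far from the rest of their group were sought in the 10 genes and 5 ratios and in Tgfb1 with Dixon's criterion, over 32 groups of 4 libraries. 4 groups met it, where chance gives about 1.6. Fbln1 had 3057 normalised counts in TGFβ1FKO library 1, against 2964 to 2971 in the other 3 libraries of that group. The ratio of Eln over Fbn1 was 0.00973 in control library 3, against 0.00342 to 0.00432 in the other control libraries. Fbn2 over Fbn1 was lowest in control library 4, with 0.00710 against 0.0118 to 0.0123. Fbln5 over Efemp2 was highest in control library 4, with 1.60 against 1.20 to 1.22.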

How the results depend on the processing

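Under each of 13 alternatives 0 of the 10 genes and 0 of the 53 partner genes were called, and 124 of 130 log2 fold changes of the 10 genes kept their sign. The log2 fold change of Eln was beyond 0.6 in size in 4 of them, -0.81 without control library 1, -0.69 without control library 4 and -0.62 without TGFβ1FKO library 1 or 2, with adjusted p-values of 0.449 to 0.850 in limma. The lowest adjusted p of any of the 10 genes was that of Eln without control library 1, 0.449 (limma). Of the partner genes, Loxl4 had an adjusted p of 0.0474 (limma) without TGFβ1FKO library 1. Its log2 fold change there was 0.45, so only the fold threshold kept it from being called. The count of all genes called, 13, was 3 with at least 10 reads in every library and 31 with the replicate number as a block, and ran from 5 to 32 when 1 library was left out. Genes of the 10 at an unadjusted p under 0.05 numbered 0 to 3 when 1 library was left out: Eln and Mfap2 without control library 1, Fbn1 and Mfap2 without control library 2, Eln, Fbln5 and Mfap5 without control library 4, and Fbln2 and Mfap5 without TGFβ1FKO library 1. The cause was not tested. Leaving out 1 library turned the sign of small log2 changes, with ranges of -0.13 to 0.21 for Fbn2, -0.00165 to 0.0880 for Fbln1, -0.0110 to 0.104 for Lox, -0.135 to 0.0560 for Fn1, -0.0722 to 0.0256 for Mmp14, -0.0452 to 0.0899 for Mus81 and -0.17 to 0.13 for Mfap5 over Mfap2. Eln ranged from -0.81 to -0.28.

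With the replicate block 1 of the 10 genes, Eln, had an unadjusted p under 0.05. The groups share replicate numbers, but the labels state no pairing. Deviations of same-numbered libraries correlated between -0.134 and 0.159, over 0.1 in 2 of 4 pairs. Those of libraries with unlike numbers correlated between -0.319 and 0.387. The numbers were not taken to pair the samples, although this check cannot exclude a pairing. The count tests in edgeR and DESeq2 were not run. Of the 10 genes Eln had the fewest reads in a library, 153. Its coefficient of variation in control libraries, 49.7%, was nevertheless far above its counting error of 6.88%.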
